A study of Mus musculus with 30 samples.

Results

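The 10 genes described here encode the enzymes and associated proteins that make, lengthen and desaturate fatty acids in the liver: Acly, Me1, Acaca, Fasn, Elovl6, Elovl5, Scd1, Fads1, Fads2 and Pnpla3. They were found on the array by the RefSeq transcript named for each probe, which gave 15 probes for 10 genes among 41174 probes in all. All 15 probes passed the filter on dim signals, as did 23607 probes in all. Fasn had 2 probes, Elovl5 had 2 and Acaca had 4. Where a gene had several probes, the brightest in Cy5 stands for it.

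RNA was taken from the livers of female C57BL/6 mice bought from Taconic at an age of 5 to 6 weeks, and each mouse had its own array. The exposed group was 14 mice instilled through the trachea with 0.162 mg of the nanoparticulate carbon black Printex 90, suspended in saline with some lavage fluid of other mice of the strain. The control group was 16 mice whose treatment label reads none, so the labels analysed here do not say whether they received the suspension fluid. On every array the liver RNA was labelled with Cy5, and Cy3 marked a universal reference RNA of mouse. All levels below are log2 ratios of Cy5 over Cy3, and a difference of 1 is a 2-fold change. The whole liver was measured, so fewer cells of a type and less RNA per cell cannot be told apart.

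The animal numbers form 3 runs of neighbouring numbers in each group. Exposed runs 1, 2 and 3 held 4, 5 and 5 mice and control runs 1, 2 and 3 held 6, 5 and 5. What a run stands for is not stated in the labels. Mice of run 1 held the first array position of their group in 10 of 10 cases and mice of run 3 the last in 10 of 10, so these runs go with position. Control arrays lay at positions 1 and 2 of a slide and exposed arrays at positions 3 and 4, so exposure and array position cannot be told apart. The arrays of exposed run 1 were dim: their median Cy5 signal was 104 to 119.5, with a middle value of 109.75, and the share of probes that cleared background well was 50.01% to 55.64%. In control run 1 the middle value was 115.5 and that share was 51.23% to 71.33%. Low shares also occurred in the other control runs, at 42.75% in run 2 and 45.1% in run 3. The 2 arrays with these shares had median Cy5 signals of 139 and 136, so they were not dim by that measure. The part of signal strength in the results was not tested. The hepatocyte markers Alb, Ttr, Apoa1, Apoa2, Apob, Tat, Hpd, Fgb and Ahsg were well above background on all 30 arrays.

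Hepatic fatty acid synthesis turns surplus carbohydrate into lipid. Citrate leaves the mitochondrion and is cleaved by Acly to acetyl-CoA, Acaca carboxylates it to malonyl-CoA, and Fasn builds palmitate with NADPH that Me1 helps to supply. Elovl6 lengthens palmitate to stearate and Scd1 places a double bond in it to give oleate. Fads2, Elovl5 and Fads1 act in turn on dietary polyunsaturated fatty acids, and Pnpla3 is a lipid droplet protein. The transcription factors SREBP-1c (from Srebf1), ChREBP (from Mlxipl) and LXR alpha (from Nr1h3) are known to drive many of these genes in liver after feeding.

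In the comparison of all 14 exposed with all 16 control mice, which asks whether the liver responds to particles given to the lung, none of the 10 genes passed the test. In limma's moderated test, with p-values adjusted over 23607 probes (Benjamini-Hochberg), 0.0169% of probes passed. At an unadjusted p under 0.05 there were 2 of the 10 genes and 2875 of 23607 probes. Those genes were Acaca, the carboxylase, at a difference of 0.32 ± 0.09 (SE; adjusted p = 0.16), and Me1, the malic enzyme, at 0.23 ± 0.11 (adjusted p = 0.391). Scd1 stood at -0.35 ± 0.20 (adjusted p = 0.485). With array quality weights in the fit Acaca passed, at 0.33 (adjusted p = 0.0421). The other three Acaca probes gave 0.13, 0.10 and 0.19.

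Differences from the mean of the control runs appeared in exposed run 1, in the desaturases Scd1 and Fads2 and in the elongase Elovl5. In exposed run 1, against the mean of the 3 control runs, 3 of the 10 genes fell and none rose, while 4.8% of all probes passed, 3.19% lower and 1.6% higher. The balance of all probes moved with the scaling, from 378 higher and 754 lower here to 794 and 995 without background correction, 753 and 1004 with Agilent's processed signals, 821 and 823 in the deposited values and 128 and 46 with median centring in place of loess. The 3 genes were Scd1, Elovl5 and Fads2. With slide as a fixed block 427 probes passed and 3 of the 10 genes, and with array position as a term 288 probes and 2 genes. Without animal 176 or 177 of exposed run 1, 510 or 481 probes passed in place of 1132, with 2 and 3 of the 10 genes among them. In exposed run 2 and exposed run 3 none of the 10 passed, where 0.0169% and 0.131% of probes did. At an unadjusted p under 0.05 there were 4 of the 10 genes in run 2 and 1 in run 3, among 2433 and 3089 probes. The median difference of the 10 genes in exposed run 1 was -0.23, beside -0.04 over all tested genes. Against control run 1 alone it was 0.03, with 5 genes higher and 5 lower. A lower run 1 was seen in both groups. Control run 1 stood at a median of -0.44 from control runs 2 and 3, beside 0 over all tested genes. Exposed run 1 stood at -0.35 from exposed runs 2 and 3, beside -0.06. In both, 10 of the 10 genes were lower. The share of all probes lower in both was not computed.

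**Figure D1:**
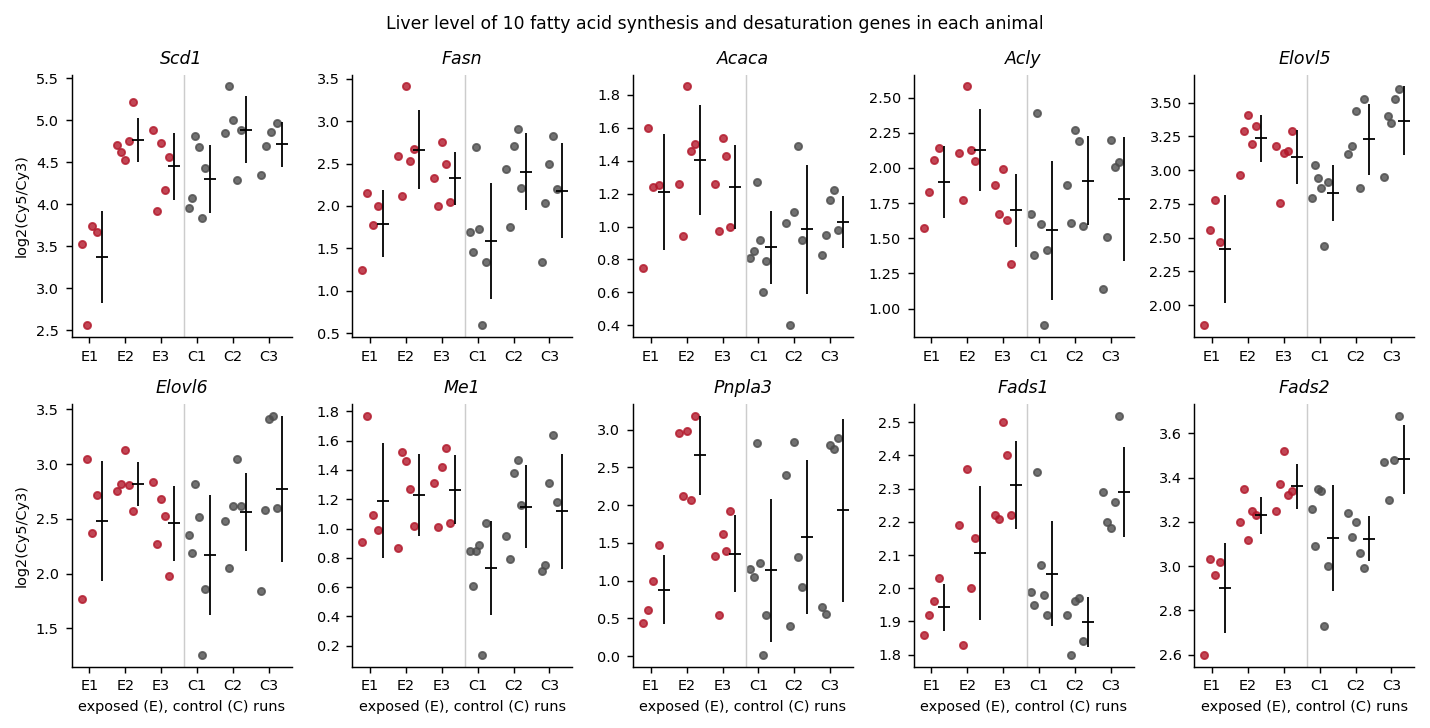
Level of each of the 10 genes in every animal, as log2 of liver Cy5 over reference Cy3. Points are single mice of exposed runs E1 to E3 (red) and control runs C1 to C3 (grey), and bars are the mean and SD of a run. The 4 mice of exposed run 1 lie below all controls for Scd1, from 2.56 to 3.74.

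The desaturases are given first. Scd1, the stearoyl-CoA desaturase, stood at 3.53, 2.56, 3.74 and 3.67 in exposed run 1. In exposed run 2 it was 4.71, 4.62, 4.53, 4.75 and 5.21, and in exposed run 3 it was 4.88, 3.92, 4.73, 4.17 and 4.56. Control run 1 ranged from 3.84 to 4.81 with a median of 4.26, control run 2 held 4.85, 5.40, 5.00, 4.29 and 4.88, and control run 3 held 4.35, 4.69, 4.86 and 4.96, since the spot of animal 596 was missing. All 4 mice of exposed run 1 were below every control mouse, whose lowest value was 3.84, and below every mouse of the other exposed runs. Over all probes, 0.432% had every value of exposed run 1 below every control value, and 2.38% had them below every value of exposed runs 2 and 3. Scd1 differed from the mean of the control runs by -1.28 ± 0.21 in exposed run 1 (SE; 2.43-fold lower; limma adjusted p = 0.00054), and it ranked 47 by p among 23607 probes. With array position as a term in the fit, coded as the order within a group's pair of neighbouring positions, the difference was -1.33 (adjusted p = 0.00783). Within a run only the mice of run 2 differed in that order, so the term rests on them. It does not code positions 1 and 2 against 3 and 4, so it cannot separate exposure from position. Scd1 stood at 0.15 ± 0.19 in exposed run 2 (adjusted p = 0.806) and at -0.19 ± 0.19 in exposed run 3 (adjusted p = 0.721).

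Fads2, the delta-6 desaturase, stood at 2.60, 3.03, 2.96 and 3.02 in exposed run 1. In exposed run 2 it ranged from 3.12 to 3.35 and in exposed run 3 from 3.25 to 3.52. Control run 1 ranged from 2.73 to 3.35, and over all 15 control mice with a value the range was 2.73 to 3.68. Exposed run 1 lay below all mice of exposed runs 2 and 3, as it did for 2.38% of all probes. It overlapped control run 1 and also control run 2, which ranged from 2.99 to 3.24. The difference from the mean of the control runs was -0.37 ± 0.09 (limma adjusted p = 0.0154). The value of animal 176 stood apart from the other 3 mice of its run, and without it the difference was -0.26 (adjusted p = 0.147). With median centring it was -0.24 (adjusted p = 0.74), with Agilent's processed signals -0.27 (adjusted p = 0.0826) and with array position as a term -0.38 (adjusted p = 0.0892).

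Fads1, the delta-5 desaturase, stood at 1.86, 1.92, 1.96 and 2.03 in exposed run 1, at 1.83 to 2.36 in exposed run 2 and at 2.21 to 2.50 in exposed run 3. Control run 1 held 1.92 to 2.35, control run 2 held 1.80 to 1.97 and control run 3 held 2.18 to 2.52. Both groups had their highest run mean in run 3, at 2.31 ± 0.13 (SD, n = 5) in exposed and 2.29 ± 0.14 (SD, n = 5) in control mice. Its difference from the mean of the control runs was -0.15 ± 0.08 in exposed run 1 and did not pass (limma adjusted p = 0.295). In exposed run 3 it was 0.23 ± 0.07 (adjusted p = 0.17).

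Of the elongases, Elovl5, which lengthens polyunsaturated fatty acids, stood at 1.85, 2.56, 2.78 and 2.47 in exposed run 1. It ranged from 2.96 to 3.41 in exposed run 2 and from 2.76 to 3.29 in exposed run 3. Control run 1 ranged from 2.44 to 3.04, control run 2 from 2.87 to 3.53 and control run 3 from 2.95 to 3.60. Exposed run 1 overlapped control run 1 and, in animal 179, exposed run 3. The difference was -0.73 ± 0.13 (limma adjusted p = 0.0016), with position as a term it was -0.66 (adjusted p = 0.0386), and the other Elovl5 probe gave -0.54 ± 0.11 (adjusted p = 0.00388). With median centring the difference was -0.57 and did not pass (adjusted p = 0.151). Elovl6, which lengthens palmitate, averaged 2.48 ± 0.54 in exposed run 1 (SD, n = 4) and stood at -0.06 from the control mean (adjusted p = 0.929).

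**Figure D2:**
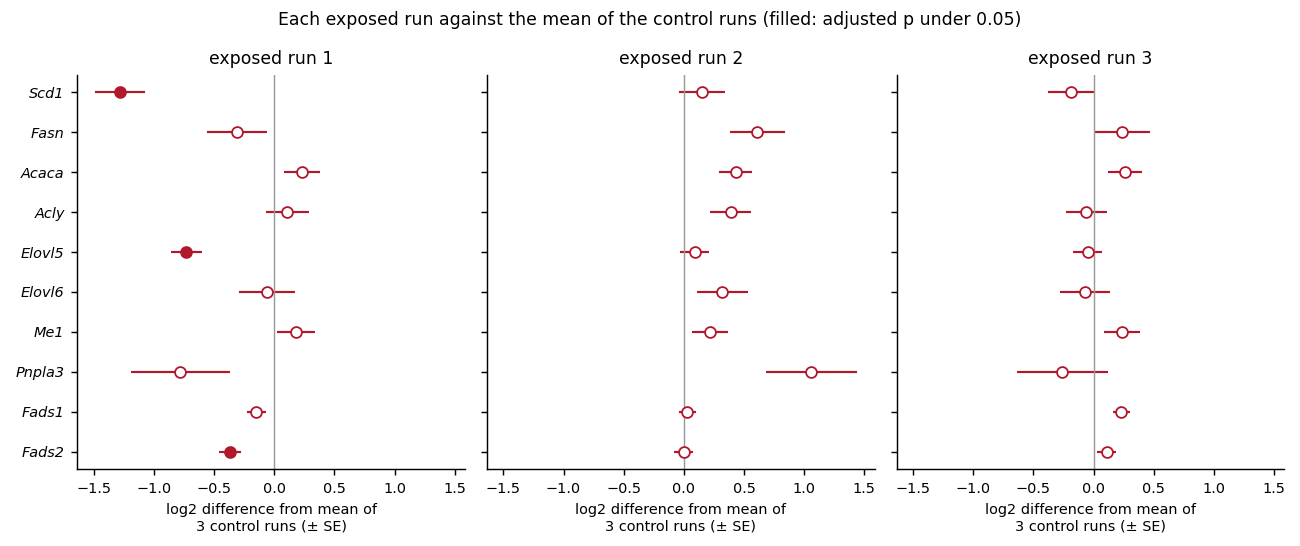
Log2 difference of each exposed run from the mean of the 3 control runs, with its SE, for the 10 genes. Filled points passed at an adjusted p under 0.05, which Scd1, Elovl5 and Fads2 did in exposed run 1 at -1.28, -0.73 and -0.37.

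The genes of carbon supply and chain synthesis did not pass in exposed run 1. Fasn, the synthase itself, ranged from 1.24 to 2.15 in exposed run 1, while control run 1 ranged from 0.59 to 2.70 and all controls from 0.59 to 2.91. Exposed run 1 overlapped each control run, and the difference from the control mean was -0.31 ± 0.25 (limma adjusted p = 0.553). The other Fasn probe gave -0.25 ± 0.26 (adjusted p = 0.674). Exposed run 2 ranged from 2.12 to 3.41, and exposed run 1 stood at -0.92 from it (adjusted p = 0.071). In exposed run 2 the Fasn difference from the control mean was 0.61 ± 0.23 (adjusted p = 0.351).

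In exposed run 1 Acly ranged from 1.57 to 2.14, against 0.88 to 2.39 in all controls, and Me1 from 0.91 to 1.77, against 0.14 to 1.64. Neither gene separated the groups. Acaca stood at 0.23 (adjusted p = 0.428), Acly, the citrate lyase, at 0.11 (adjusted p = 0.808) and Me1 at 0.18 (limma adjusted p = 0.608) from the control mean. Acaca had its highest run mean, 1.40 ± 0.34 (SD, n = 5), in exposed run 2 and its lowest, 0.87 ± 0.22 (SD, n = 6), in control run 1. Its 3 dimmer probes gave -0.05, -0.02 and 0.04 in exposed run 1.

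Pnpla3 had an SD of 0.97 over all 30 mice, the largest of the 10 genes, with 0.44 to 1.47 in exposed run 1, 2.07 to 3.18 in exposed run 2 and 0.54 to 1.92 in exposed run 3. The control runs spanned 0.02 to 2.83, 0.40 to 2.84 and 0.56 to 2.89. Each control run overlapped all 3 exposed runs. Its difference in exposed run 1 was -0.78 ± 0.41 (limma adjusted p = 0.32) and in exposed run 2 it was 1.06 ± 0.38 (adjusted p = 0.312). Cy3 was well above background for this probe on 7 of 30 arrays, so its ratio rests on a dim reference signal.

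Which genes passed differed with the control run used. Against control run 1 alone, none of the 10 genes passed, where 0.246% of probes did, and 4 of the 10 had an unadjusted p under 0.05 among 2797 probes. Scd1 stood at -0.94 ± 0.23 (limma adjusted p = 0.0804), Elovl5 at -0.42 ± 0.15 (adjusted p = 0.264), Fads2 at -0.25 ± 0.10 (adjusted p = 0.33) and Me1 at 0.46 ± 0.18 (adjusted p = 0.317). Against control run 2, where 3.83% of probes passed and 2.36% were lower, Scd1 (-1.54, adjusted p = 0.000847) and Elovl5 (-0.82, adjusted p = 0.00477) fell. Against control run 3, where 3.79% passed and 2.38% were lower, Scd1 (-1.36, adjusted p = 0.0025), Elovl5 (-0.95, adjusted p = 0.000694), Fads2 (-0.59, adjusted p = 0.00234) and Fads1 (-0.37, adjusted p = 0.0231) fell. These comparisons share the mice of exposed run 1.

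**Figure D3:**
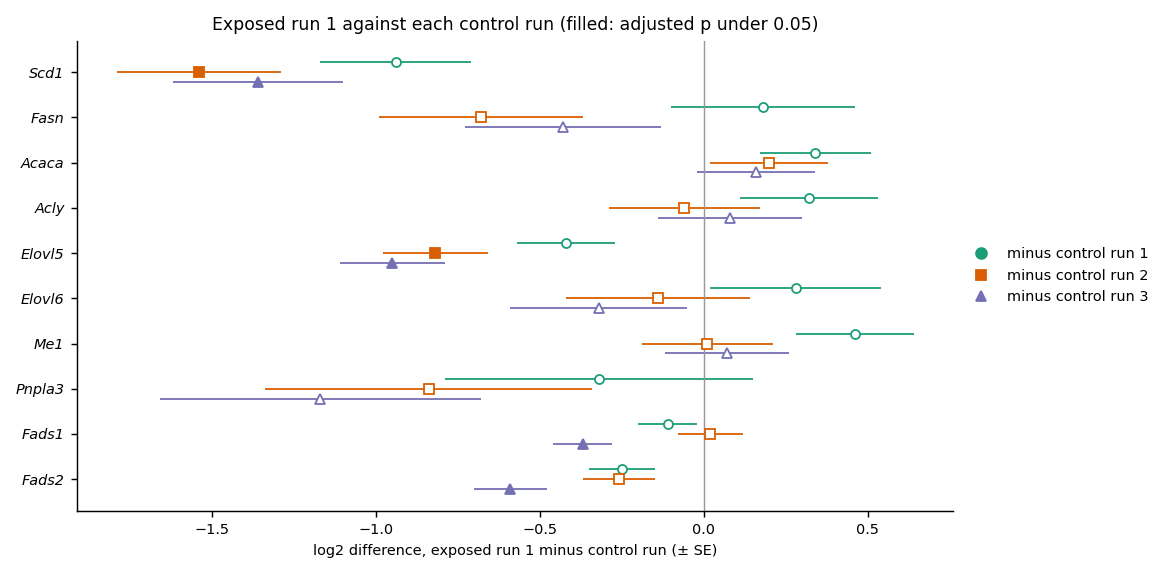
Log2 difference of exposed run 1 from each control run, with its SE, for the 10 genes. Filled symbols passed at an adjusted p under 0.05. No circle, for control run 1, is filled, and Scd1 lies at -0.94, -1.54 and -1.36.

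The 4 mice of exposed run 1 each shared a slide with a mouse of control run 1, at another position. Scd1 was lower in the exposed mouse of 4 of 4 such pairs, by differences from -2.25 to -0.28. Elovl5 was lower in 4 of 4, from -1.02 to -0.26, and Fads2 in 4 of 4, from -0.74 to -0.13. Me1 was higher in 4 of 4, from 0.02 to 0.92. Fasn was lower in 2 of 4 and higher in 2 of 4. With 4 pairs no separate test was made. The share of all probes with 4 of 4 pairs in the same direction was not computed, so these counts are descriptions.

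Among the 3 exposed runs, the moderated F test of limma called 4 of the 10 genes, where 4.13% of probes passed. They were Scd1 (adjusted p = 0.00302), Elovl5 (adjusted p = 0.00632), Fads2 (adjusted p = 0.0191) and Fads1 (adjusted p = 0.0397). The count was 1 without animal 176 of exposed run 1, 1 with slide as a fixed block, 1 with array position as a term, 2 with Agilent's processed signals, 2 without the arrays of the older extraction and 0 with median centring. The differences of exposed run 1 from exposed runs 2 and 3 were -1.26 ± 0.22 for Scd1, -0.75 ± 0.14 for Elovl5, -0.42 ± 0.09 for Fads2 and -0.28 ± 0.08 for Fads1, with adjusted p of 0.00104, 0.00199, 0.00799 and 0.0387, where 6.61% of probes passed and 4.81% were lower. Against exposed run 2 alone, where 5.94% of probes passed and 4.41% were lower, Pnpla3 was also lower in exposed run 1, at -1.84 ± 0.50 (adjusted p = 0.0276).

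Among the 3 control runs none of the 10 genes passed the F test of limma, where 0.089% of probes did, although 6 of the 10 had an unadjusted p under 0.05 among 1659 probes. The differences of control run 1 from control runs 2 and 3 were -0.73 ± 0.23 for Fasn (adjusted p = 0.411), -0.51 ± 0.19 for Scd1 (adjusted p = 0.528) and -0.47 ± 0.12 for Elovl5 (adjusted p = 0.265). Whether run 1 differed from the later runs by more in exposed than in control mice was tested as a difference of differences. None of the 10 genes and 0 of 23607 probes passed that test by limma, with 1 of the 10 and 2405 probes at an unadjusted p under 0.05. For Scd1 it was -0.75 ± 0.29 (adjusted p = 0.4), and for Fasn it was 0.00 ± 0.35 (adjusted p = 1).

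The dyes were also read separately, as channels rebuilt from the loess ratio and the mean intensity of each spot. In the Cy3 channel, which holds the same RNA on every array, exposed run 1 stood at -0.40 for Scd1 (p = 0.0357, limma adjusted p = 0.669), -0.16 for Elovl5 (adjusted p = 0.686) and -0.06 for Fads2 (adjusted p = 0.789). In the Cy5 channel the differences were -1.68 (adjusted p = 0.000216), -0.89 (adjusted p = 0.00132) and -0.44 (adjusted p = 0.0143). By this construction the Cy5 difference is close to the Cy3 difference plus the ratio difference. For these 3 genes, where both were negative, a larger Cy5 difference follows and is no separate support.

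The 10 genes did not vary as one block across animals. Over 45 pairs the Pearson correlation ranged from -0.08 to 0.84, with a median of 0.47. The synthesis genes ran close together, with 0.84 for Fasn and Acly, 0.84 for Fasn and Elovl6 and 0.79 for Fasn and Acaca over 30 mice. Within runs these were 0.90, 0.87 and 0.87. Scd1 followed Elovl5 at 0.75 over 29 mice, but at 0.38 within runs, and it followed Fasn at 0.41, Acaca at -0.08 and Me1 at 0.00. These mice share slides and runs, and the values are descriptions.

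**Figure D4:**
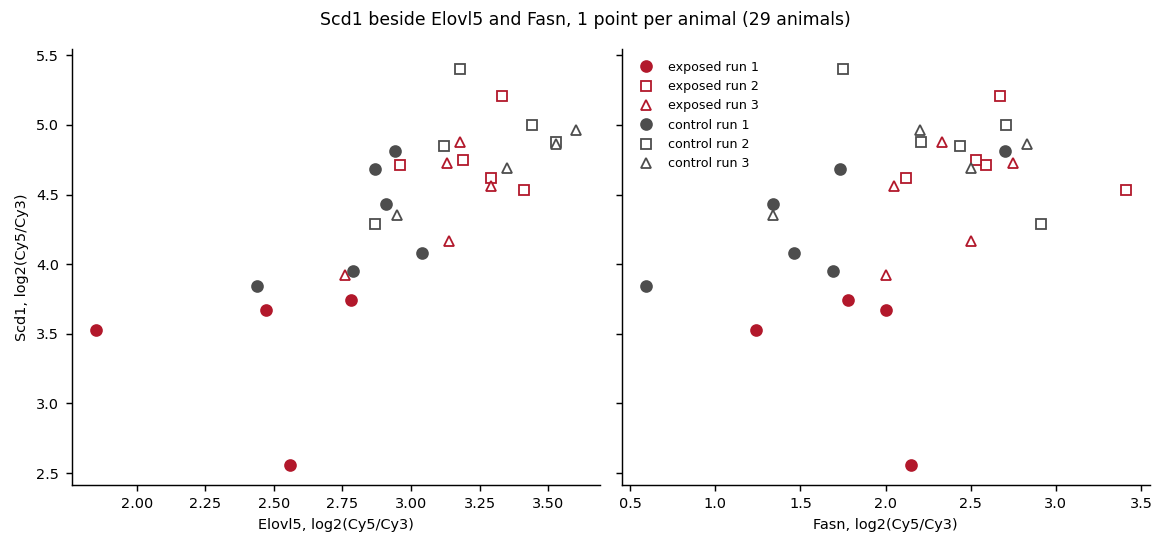
Scd1 against Elovl5 and against Fasn, both as log2 of Cy5 over Cy3, 1 point per mouse (29 mice). The filled red circles of exposed run 1 lie lowest on the Scd1 axis, at 2.56 to 3.74, while on the Fasn axis they overlap the control mice.

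The genes most like Scd1 over the animals were, by Pearson correlation, Ifi27l2a (0.93), Isg15 (0.87), Acsl5 (0.85), Phf11a (0.84) and Oasl2 (0.83), over 28 or 29 mice. Within runs they stood at 0.80, 0.70, 0.63, 0.75 and 0.62. Of these Acsl5 encodes an acyl-CoA synthetase, and Ifi27l2a, Isg15 and Oasl2 are known as interferon-stimulated genes. The genes most like Fasn were Pgd (0.84), an NADPH-producing enzyme of the pentose phosphate pathway, Agtrap (0.75), Chrna4 (0.75), Dock6 (0.75) and Eif4e (0.74) over 30 mice.

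Promoters are shown for the synthase Fasn, which did not pass in exposed run 1, and for Elovl5 and Fads2, which passed as lower there. Not passing does not mean that Fasn was unchanged. Its difference was -0.31 ± 0.25, beside -0.37 ± 0.09 for Fads2. The RefSeq promoter windows used here, of GRCm38.p6, covered 8 of the 10 genes, and Scd1 and Fads1 are only named. Each window runs from 250 bases before the start to 50 after it, 5′ to 3′ on the gene's strand. Capitals mark matches, on either strand, to the sterol response element of SREBP (TCACNCCAC), to the E-box (CACGTG), to the NF-Y box (CCAAT) and to the GC box of SP1 (GGGCGG). In Fasn one NF-Y box overlaps its own reverse complement.
Fasn (chr11:120824498-120824797, minus strand): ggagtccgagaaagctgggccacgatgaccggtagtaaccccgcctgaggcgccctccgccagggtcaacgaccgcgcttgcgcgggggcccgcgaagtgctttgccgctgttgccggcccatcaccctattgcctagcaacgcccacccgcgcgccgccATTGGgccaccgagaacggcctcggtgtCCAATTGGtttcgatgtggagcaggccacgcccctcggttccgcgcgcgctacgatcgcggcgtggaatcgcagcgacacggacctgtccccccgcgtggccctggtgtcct
Elovl5 (chr9:77917115-77917414, plus strand): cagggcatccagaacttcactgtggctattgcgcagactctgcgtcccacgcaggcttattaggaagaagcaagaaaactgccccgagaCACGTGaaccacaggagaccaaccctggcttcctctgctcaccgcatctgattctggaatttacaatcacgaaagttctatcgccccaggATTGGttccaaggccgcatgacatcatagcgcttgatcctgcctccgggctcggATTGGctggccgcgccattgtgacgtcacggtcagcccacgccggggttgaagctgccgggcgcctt
Fads2 (chr19:10101454-10101753, minus strand): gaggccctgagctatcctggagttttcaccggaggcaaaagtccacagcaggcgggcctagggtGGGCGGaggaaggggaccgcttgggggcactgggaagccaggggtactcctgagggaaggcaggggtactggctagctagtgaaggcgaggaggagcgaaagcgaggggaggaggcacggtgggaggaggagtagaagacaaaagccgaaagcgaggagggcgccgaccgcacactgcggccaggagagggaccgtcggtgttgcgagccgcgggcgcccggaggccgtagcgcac

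TCACNCCAC was in none of the 8 genes' windows and in 1.24% of all 32851 promoter windows. CACGTG was in 1 of 8, Elovl5, and in 7.15% of all. CCAAT was in 5 of 8, namely Fasn, Acly, Elovl5, Me1 and Pnpla3, and in 37.4% of all. GGGCGG was in 4 of 8, namely Acly, Me1, Pnpla3 and Fads2, and in 35.7% of all. The counts are of genes with a match in any of their windows, 9 in all since Me1 has 2, while the percentages are of windows. The CCAAT of Me1 lies only in its window 2. A match describes letters in the window and is not a bound site.

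Of other genes of fatty acid synthesis, 0 of 20 tested passed in exposed run 1 against the control mean by limma, with a median of 0.02. The smallest p belonged to Scd2, another stearoyl-CoA desaturase, at -0.38 ± 0.12 (adjusted p = 0.0637), and to Slc25a1, the citrate carrier, at 0.27 ± 0.08 (adjusted p = 0.0655). Thrsp, a lipogenic protein of liver, stood at 0.04 (adjusted p = 0.937). Of the list of glycolysis and NADPH supply 1 of 14 fell, at -0.49 ± 0.10 (adjusted p = 0.00628), where 3.19% of all probes were lower. That gene was Cs, the citrate synthase, which is itself an enzyme of neither. The other 13 did not pass. The pyruvate kinase Pklr stood at 0.16 (adjusted p = 0.766).

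Of the regulators 1 of 17 rose in exposed run 1, Srebf2, the SREBP of cholesterol synthesis, by 0.59 ± 0.11 (limma adjusted p = 0.00214). Srebf1 stood at -0.48 ± 0.21 (adjusted p = 0.214), Mlxipl at -0.04 (adjusted p = 0.942) and Nr1h3 at -0.05 (adjusted p = 0.924). Insig1 and Insig2, which hold SREBPs in the endoplasmic reticulum, stood at 0.24 (adjusted p = 0.615) and 0.02 (adjusted p = 0.964). Of the genes of cholesterol synthesis 12 of 18 rose and none fell, with a median of 0.77, among them Lss at 1.37, Cyp51 at 1.07, Mvk at 1.03 and Fdps at 0.79. Both counts of higher genes stand beside 1.6% of all probes.

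In triglyceride synthesis and storage 0 of 15 passed in exposed run 1, with Mogat1 at 0.29 (limma adjusted p = 0.0634) and Dgat1 at 0.14 (adjusted p = 0.206) nearest. In exposed run 3 Lpin2, a phosphatidate phosphatase, rose by 0.87 (adjusted p = 0.0145). Of the genes induced by fasting 1 of 13 fell in exposed run 1, Acot1, an acyl-CoA thioesterase, at -0.89 ± 0.24 (adjusted p = 0.0262), where 3.19% of all probes were lower. Of the clock phase genes 2 of 9 rose, beside 1.6% of all probes, Tef at 1.06 (adjusted p = 0.0232) and Per3 at 0.61 (adjusted p = 0.0178). Their part in the levels of the 10 genes was not tested.

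Markers of cells other than hepatocytes were measured beside these genes. Of the adipocyte markers only Fabp4 was tested, and it stood at -0.76 ± 0.18 in exposed run 1 (limma adjusted p = 0.0119), with levels of 2.22 to 2.98 there and 2.51 to 3.75 in the controls. Adipoq, Plin1, Cfd, Retn, Lep and Adig were well above background on at most 7 of 30 arrays. Of the Kupffer cell markers 0 of 9 passed, with a median of -0.23 and mean levels of 2.78 to 3.45 in exposed run 1 and 2.75 to 3.96 in controls. Of the neutrophil and acinar markers 0 of 3 and 0 of 2 passed. Of the hepatocyte markers 1 of 9 fell, Ttr, the thyroxine carrier, at -1.14 ± 0.25 (adjusted p = 0.00802). The other hepatocyte markers stood at -0.11 to 0.24. The Ttr and Fabp4 calls stand beside 3.19% of all probes that were lower. The part of these markers in the Scd1, Elovl5 and Fads2 differences was not tested.

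**Figure D5:**
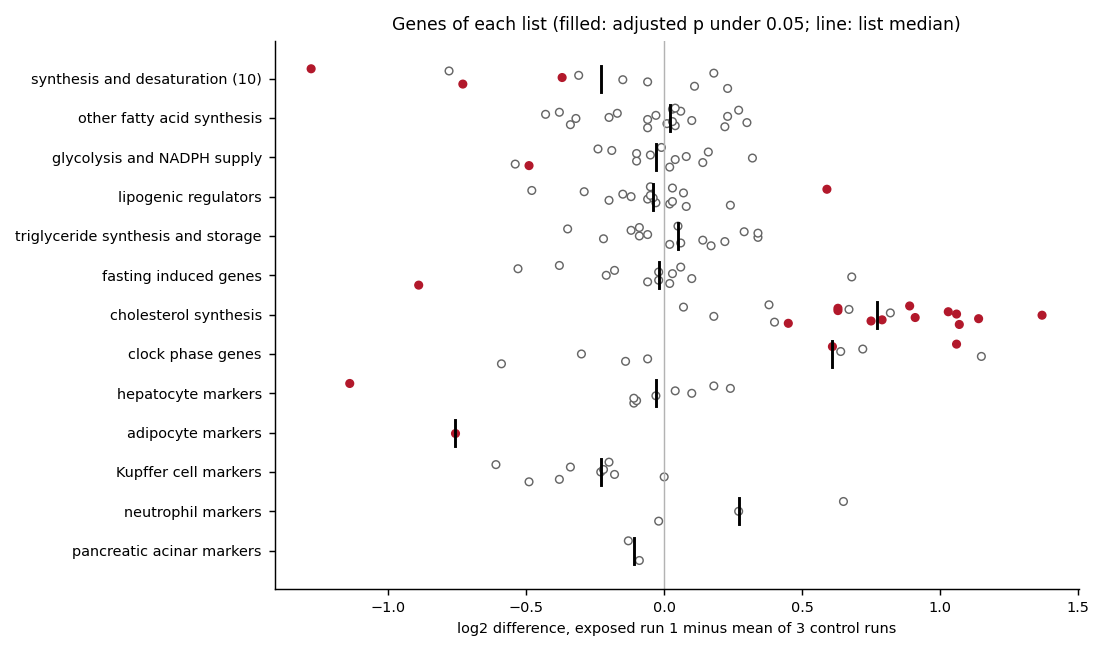
Log2 difference of exposed run 1 from the mean of the 3 control runs for the tested genes of each list, 1 point per gene. Filled points passed at an adjusted p under 0.05 and the black line is the list's median, which is -0.23 for the 10 genes and 0.77 for cholesterol synthesis.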

How the data were processed

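Liver RNA (Cy5) and a universal mouse reference RNA (Cy3) were measured in 30 mice on 2-colour Agilent arrays without dye swap. The deposited scanner files hold foreground and background intensity per spot and a log10 ratio, which the authors obtained with the Feature Extraction software of Agilent (version 10.7.3.1 on 25 arrays and 10.1.1.1 on 5), per the file headers. The deposited value table holds log2 ratios of Cy5 over Cy3 and 30 of its 30 columns matched their own array. Its normalization is not given in the sources used here.

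Background was corrected by normexp (offset 50) and ratios by loess, with control spots given weight 0 (R 4.3.3 with limma 3.58.1). Spots marked as outliers were set to missing (1008 probe values) and spots of a probe were averaged. Tests used probes whose Cy5 signal cleared background well on 14 or more of the 30 arrays. Slide was a random block (9 slides; correlation 0.159 in the fit of groups and 0.147 in the fit of runs). P-values are from limma, two-sided and adjusted over 23607 probes by the Benjamini-Hochberg method, with a threshold of 0.05. In the fit of groups they rest on the spread of mice within a group, and in the fit of runs on the spread within a run. The fit of runs takes the mice of a run as replicates. Spread between runs is not part of its error, so its p-values do not measure how far runs differ apart from exposure. Symbols came from a RefSeq table of GRCm38.p6. The number of arrays limits the precision.

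The 10 genes are named in every comparison. Of other lists up to 4 genes with the smallest p among those that passed are named, or up to 2 where none passed, plus 8 regulators and enzymes, and the 5 genes most like Scd1 and like Fasn. The members and lists were chosen with earlier results of these data known. The series text speaks of 6 mice per group, fewer than analysed here. Background correction, normalization, filter, slide and scan day blocks, array weights, array position, extraction version and each animal were varied. Within a run, the term for array position differed only among mice of run 2.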

Additional observations from a re-analysis of the deposited data

Results flagged for a closer look

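Of 60 groups of 4 to 6 values checked, 2 held a value far from the others by Dixon's criterion, and chance gives about 1 in 20. Fads2 stood at 2.60 in animal 176 of exposed run 1, where the other 3 mice held 2.96 to 3.03. Fads1 stood at 2.35 in animal 549 of control run 1, where the next value was 2.07.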

How the results depend on the processing

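Scd1 in exposed run 1 kept its direction and its adjusted p under 0.05 in 42 of 42 alternatives, from -1.42 to -0.97 (adjusted p from 0.000276 to 0.0188). These include the fits that leave out 1 animal each, and all compare with the mean of the control runs. Against control run 1 alone Scd1 did not pass (limma adjusted p = 0.0804). For exposed run 1 the count of the 10 genes was 3, and 1 with median centring, with 1132 and 174 probes called. Elovl5 then stood at -0.57 (adjusted p = 0.151). Fads2 lost its call with median centring (-0.24, adjusted p = 0.74), Agilent's processed signals (-0.27, adjusted p = 0.0826), array position as a term (-0.38, adjusted p = 0.0892) and without animal 176 (-0.26, adjusted p = 0.147). Among exposed runs the count was 4, against 2 with processed signals, 0 with median centring, 1 with slide as a fixed block, 1 with array position and 2 without the older extraction. In the comparison of all mice the count was 0, and 1 with array weights (Acaca, 0.33, adjusted p = 0.0421). Leaving out each animal gave 2 to 3 for exposed run 1, 1 to 5 among exposed runs (1 without animal 176) and 0 to 0 for the others. The cause of these changes was not tested. No called value changed direction. No paired analysis was possible by animal number, because the groups share none. Slides held both groups in 7 of 9 cases, and with slide as a fixed block 3 of the 10 genes passed in exposed run 1, with 427 probes called.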
